A study of Mus musculus with 6 samples.

Results

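The ISG15 conjugation genes are the 5 genes Isg15, Uba7, Ube2l6, Herc6 and Usp18, which encode the ubiquitin-like protein ISG15, the enzymes that attach it to other proteins and the protease that takes it off. They were chosen by name for these roles out of 54532 listed genes, with earlier results of these data known. All 5 were among the 16426 genes with a mean FPKM (fragments scaled to gene length and library size) of at least 0.5, which were tested. RNA-seq was performed on colitis-associated tumors induced by AOM (azoxymethane, a colon carcinogen) and DSS (dextran sulfate sodium, which injures the colon epithelium). There were 3 tumors labelled WT and 3 labelled CRE, which are Tmem173fl/fl and Tmem173iΔmye in the study's terms. Both groups carry loxP sites in both copies of Tmem173, the gene encoding STING, and both received tamoxifen (TAM, 120 mg/kg, 5 injections) after 3 cycles of AOM/DSS, when tumors had formed. Tmem173iΔmye mice also carry Lyz2-Creert2, a Cre recombinase that TAM activates under the promoter of lysozyme 2, which is meant to delete Tmem173 in macrophages, monocytes and neutrophils rather than in tumor cells. The study's methods give ages for its TAM injections in general but do not state the age of these late-deletion groups. The comparison asks how deletion of Tmem173 in myeloid cells of existing tumors changes their gene expression.

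ISG15 is a small protein made of a pair of ubiquitin-like domains, and cells make it when interferons reach their receptors. It is activated by UBA7, an E1 enzyme, passed to UBE2L6, an E2 enzyme, and joined to lysines of newly made proteins by an E3 ligase, which in mice is HERC6 and in humans HERC5. USP18 cleaves ISG15 from its targets and, apart from this activity, binds the interferon receptor subunit IFNAR2 and restrains its signalling. In the colon, Isg15 is known to be induced in inflamed mucosa.

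In the coordinates of the table (GRCm38), Isg15 (ENSMUSG00000035692) lies on the minus strand at chr4:156199424-156200818. The other members lie on plus strands, Uba7 (ENSMUSG00000032596) at chr9:107975505-107984060, Ube2l6 (ENSMUSG00000027078) at chr2:84798828-84810335, Herc6 (ENSMUSG00000029798) at chr6:57581000-57664632 and Usp18 (ENSMUSG00000030107) at chr6:121245906-121270917. The strand setting of the counting is not given in the sources used here and strandedness was not tested, so reads of overlapping genes on the opposite strand may not have been told apart. The genes that overlap Usp18, Uba7 and Herc6 (Gm44148, Gm20661, Gm19244 and Gm45193) had at most 5 counts in any tumor. AC151275.1, an Isg15 pseudogene, had at most 4.

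RefSeq promoters (GRCm38.p6) were matched for 4 of the 5 members, and their last 150 bases before the start site are shown because interferon-induced genes are often switched on through repeats of the half-site GAAA spaced by 2 bases. Capitals mark the best matches of each promoter to GAAANNGAAA on either strand, where these had 7 or 8 of its 8 fixed letters and lie in the stretch shown, and weaker matches of the same promoter stay in lower case. Isg15 is shown at chr4:156200819-156200968 (minus strand), Uba7 at chr9:107975417-107975566, Ube2l6 at chr2:84798678-84798827 and Herc6 at chr6:57580842-57580991 (plus strands). Start sites here are those of RefSeq, which for Uba7 and Herc6 differ from the gene starts given above. The end of the Uba7 stretch, with its capitals, lies inside the gene as placed above (from 107975505).
Isg15: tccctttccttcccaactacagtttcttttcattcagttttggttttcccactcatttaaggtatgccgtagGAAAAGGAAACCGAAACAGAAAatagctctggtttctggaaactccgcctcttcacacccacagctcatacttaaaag
Uba7: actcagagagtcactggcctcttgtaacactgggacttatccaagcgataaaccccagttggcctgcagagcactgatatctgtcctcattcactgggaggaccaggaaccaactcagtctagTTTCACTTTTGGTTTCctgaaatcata
Ube2l6: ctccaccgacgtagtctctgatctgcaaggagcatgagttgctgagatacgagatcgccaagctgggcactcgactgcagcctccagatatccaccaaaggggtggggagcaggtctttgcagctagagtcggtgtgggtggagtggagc
Herc6: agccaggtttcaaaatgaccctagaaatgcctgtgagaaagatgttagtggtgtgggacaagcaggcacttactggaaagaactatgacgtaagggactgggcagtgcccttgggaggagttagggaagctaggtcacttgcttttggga
The Isg15 promoter held 3 full matches that overlap each other, so that 4 half-sites followed in a row from 78 to 57 bases before the start site. A full match on either strand was held by 3.44% of 32851 promoters of 300 bases (250 before and 50 after the start site). A row of 4 half-sites was held by 2 of them, of which Isg15 was 1. The length of 4 was taken from Isg15 itself, so its place among them was given in advance. The 3 other members with an entry held no full match. Uba7 had overlapping matches of 7 letters on the opposite strand from 27 to 12 bases before its start and another of 7 letters after it, and Herc6 had 1 of 7 letters from 197 to 188 bases before its start, outside the stretch shown. Matches of at least 7 letters were held by 35.4% of all promoters, and the best match of Ube2l6 had 5 letters.

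All 5 members had a higher mean level in Tmem173iΔmye than in Tmem173fl/fl tumors, by a factor that ranged from 1.23 for Uba7 to 4.18 for Isg15. Fold changes are Tmem173iΔmye over Tmem173fl/fl, fitted to the counts with edgeR's quasi-likelihood test. The study's limits (a log2 fold change of 1 or more in size, with an unadjusted p under 0.05) were passed by 3 of the 5, Isg15, Ube2l6 and Usp18, all higher in Tmem173iΔmye. Of all genes tested, 2.12% passed these limits and 1.26% passed them with the higher level in Tmem173iΔmye. The members were chosen with earlier results of these data known. Their counts beside such shares of all genes, here and below, are therefore a description and not a test. After Benjamini-Hochberg adjustment over all genes, no member and 0 genes (0%) had an adjusted p under 0.05 in edgeR, whereas 1008 genes had an unadjusted p under 0.05 and DESeq2 gave 28 genes with an adjusted p under 0.05, none of them a member. The median log2 fold change of the 5 members was 1.01, beside -0.0042 for all genes tested. With Tmem173iΔmye replicate 1 left out, the median was 0.56 and 0 members passed the limits, and with Tmem173fl/fl replicate 2 left out the median was 0.90 and 0 passed them.

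Several facts of the series bear on every value below. Totals ranged from 15329810 to 16533732 counts per tumor. Tmem173 itself had 1748, 2911 and 1705 counts in Tmem173fl/fl replicates 1 to 3 and 2291, 2245 and 1953 in Tmem173iΔmye replicates 1 to 3 (log2 fold change 0.0015, SE 0.24, adjusted p = 0.9998 from edgeR), so its level in whole tumors did not tell the groups apart. The direction of each difference rests on the labels alone, which no value here checks, and every direction given would turn if the labels of the groups had been exchanged. Reads of the Y chromosome (from Uty, Kdm5d, Eif2s3y and Ddx3y) came from Tmem173iΔmye replicates 1 and 2 and Tmem173fl/fl replicate 1, at 2655 to 3547 counts, and numbered at most 2 in the other tumors, which held nearly all Xist reads. The sexes were therefore not balanced between the groups. In bulk tumor RNA, fewer cells that express a gene cannot be told apart from less RNA of that gene per cell.

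**Figure D1:**
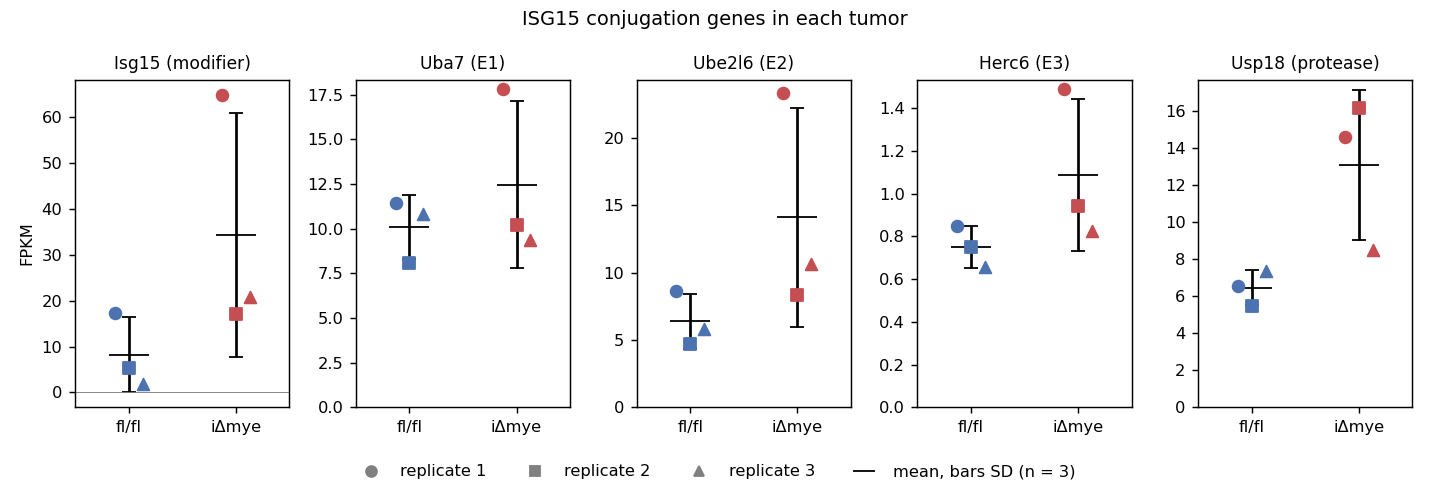
FPKM of the 5 ISG15 conjugation genes (vertical axes, each on its own scale) in Tmem173fl/fl (blue) and Tmem173iΔmye (red) tumors, with 1 point per tumor and black lines for the mean and SD of 3 tumors. Isg15 in Tmem173iΔmye replicate 1, at 64.9 FPKM, stands above the other tumors, and the groups are apart without overlap for Usp18, whose highest tumor is Tmem173iΔmye replicate 2.

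Isg15 encodes the modifier itself. Its level was 17.4, 5.39 and 1.74 FPKM in Tmem173fl/fl replicates 1, 2 and 3 (205, 61 and 22 counts) and 64.9, 17.1 and 20.9 FPKM in Tmem173iΔmye replicates 1, 2 and 3 (779, 207 and 249 counts). Tmem173fl/fl replicate 1 was just above Tmem173iΔmye replicate 2, so the groups overlapped by this pair of tumors, and Tmem173iΔmye replicate 1 was the highest by a wide margin. The mean was 8.16 ± 8.17 FPKM (SD, n = 3) in Tmem173fl/fl and 34.3 ± 26.6 FPKM (SD, n = 3) in Tmem173iΔmye tumors. The log2 fold change of 2.06 (SE 0.82, 95% interval 0.17 to 3.95) had an unadjusted p of 0.0362 and an adjusted p of 0.742 from edgeR. Isg15 was the most variable member. Its SD came to 100.1% of the mean in Tmem173fl/fl and 77.5% in Tmem173iΔmye tumors, and the highest Tmem173iΔmye tumor had 3.79 times the level of the lowest. An exact two-sided permutation test on log2(FPKM + 1), which cannot go below 0.1 with 3 tumors against 3, gave p = 0.2. Without Tmem173fl/fl replicate 1 the log2 fold change was 3.28, without Tmem173fl/fl replicate 3 it was 1.58, and without Tmem173iΔmye replicate 1 it was 1.21.

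Uba7 encodes the E1 enzyme that activates ISG15, and its level differed least between the groups. It stood at 11.5, 8.09 and 10.8 FPKM in Tmem173fl/fl replicates 1, 2 and 3 and at 17.8, 10.2 and 9.35 FPKM in Tmem173iΔmye replicates 1, 2 and 3. Tmem173iΔmye replicate 1 was again the highest, while the other two Tmem173iΔmye tumors lay within the range of the Tmem173fl/fl tumors. The log2 fold change was 0.30 (SE 0.26, 95% interval -0.31 to 0.91, adjusted p = 0.787 from edgeR; exact permutation p = 0.6). Without Tmem173iΔmye replicate 1 it was -0.05, so the direction of Uba7 turned with this tumor.

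Ube2l6 encodes the E2 enzyme. Its level was 8.63, 4.72 and 5.80 FPKM in Tmem173fl/fl replicates 1, 2 and 3 and 23.4, 8.33 and 10.6 FPKM in Tmem173iΔmye replicates 1, 2 and 3. The order of the tumors was that of Isg15 at the top, and the groups overlapped by Tmem173fl/fl replicate 1 and Tmem173iΔmye replicate 2. The means were 6.38 ± 2.02 (SD, n = 3) and 14.1 ± 8.10 FPKM (SD, n = 3), and the log2 fold change was 1.14 (SE 0.41, 95% interval 0.18 to 2.09, unadjusted p = 0.0252, adjusted p = 0.742 from edgeR; exact permutation p = 0.2). Without Tmem173iΔmye replicate 1 it was 0.56 and no longer passed the limits.

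Herc6, the E3 ligase, was the member with the lowest level in 6 of 6 tumors, as compared per length of gene. It had 0.847, 0.748 and 0.655 FPKM in Tmem173fl/fl replicates 1, 2 and 3 (123, 104 and 102 counts) and 1.49, 0.942 and 0.824 FPKM in Tmem173iΔmye replicates 1, 2 and 3 (220, 140 and 121 counts). The groups overlapped only by Tmem173fl/fl replicate 1, which was just above Tmem173iΔmye replicate 3. The log2 fold change was 0.53 (SE 0.28, 95% interval -0.12 to 1.18, unadjusted p = 0.0945, adjusted p = 0.742 from edgeR; exact permutation p = 0.2), and it was 0.23 without Tmem173iΔmye replicate 1.

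Usp18 encodes the protease that removes ISG15, and it was the single member whose groups did not overlap. Its level was 6.56, 5.49 and 7.35 FPKM in Tmem173fl/fl replicates 1, 2 and 3 (286, 229 and 344 counts) and 14.6, 16.2 and 8.51 FPKM in Tmem173iΔmye replicates 1, 2 and 3 (646, 721 and 375 counts). The 3 Tmem173fl/fl tumors lay close together, Tmem173iΔmye replicates 1 and 2 were far above them, and Tmem173iΔmye replicate 3 was only slightly above the highest of them. In CPM (counts scaled to library size), all 3 Tmem173iΔmye tumors were above all 3 Tmem173fl/fl tumors for 6.03% of all genes tested. The means were 6.47 ± 0.94 FPKM (SD, n = 3) and 13.1 ± 4.04 FPKM (SD, n = 3), and the log2 fold change was 1.01 (SE 0.26, 95% interval 0.42 to 1.61). Its unadjusted p of 0.00463 was the lowest among the members and rank 51 of 16426 genes, with an adjusted p of 0.742 from edgeR and 0.111 from DESeq2. The exact permutation p was 0.1, the smallest that 3 tumors against 3 allow. Unadjusted p under 0.05 with a higher level in Tmem173iΔmye was found for 3.23% of all genes tested and for 3 of the 5 members. Usp18 depended least on any single tumor among these 3, with a log2 fold change from 0.83 to 1.25 when each tumor was left out in turn, which lies on both sides of the limit of 1.

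The members differed in which tumor was highest. Isg15, Uba7, Ube2l6 and Herc6, 4 of the 5, were highest in Tmem173iΔmye replicate 1, and Usp18 was highest in Tmem173iΔmye replicate 2. Uba7, Ube2l6 and Usp18 were lowest in Tmem173fl/fl replicate 2, and Isg15 and Herc6 in Tmem173fl/fl replicate 3. Among the 3 tumors with Y-linked reads, all 5 members had a higher mean FPKM in the 2 Tmem173iΔmye tumors than in the 1 Tmem173fl/fl tumor, by log2 ratios from 0.29 for Uba7 to 1.24 for Isg15. Among the 3 tumors without them, 4 of the 5 were higher in the 1 Tmem173iΔmye tumor, by 0.23 for Herc6, 0.41 for Usp18, 1.01 for Ube2l6 and 2.55 for Isg15, and Uba7 had a log2 ratio of -0.02. These splits hold too few tumors for a test. When edgeR also took account of Y-linked reads, Isg15 had a log2 fold change of 1.86, Ube2l6 0.94, Usp18 0.81, Herc6 0.37 and Uba7 0.13, and 1 member, Isg15, passed the limits.

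**Figure D2:**
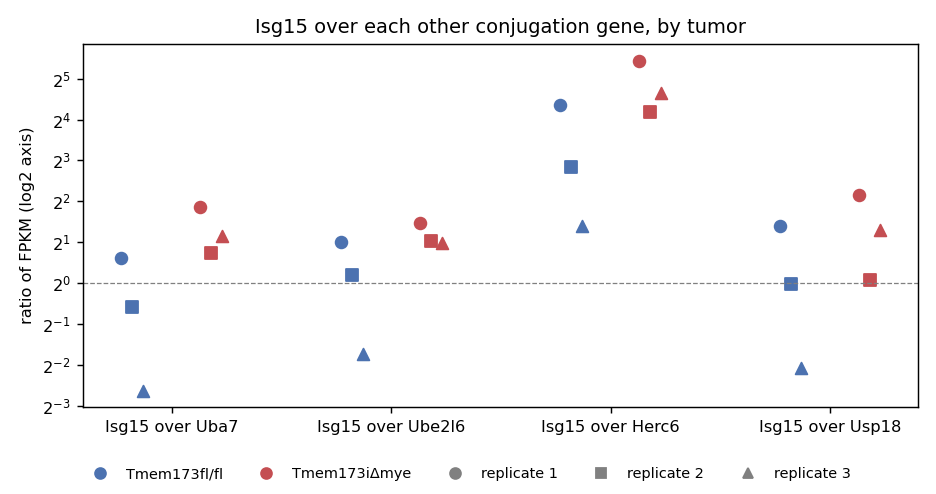
Ratio of the FPKM of Isg15 to that of each other conjugation gene (vertical axis, log2 scale) in each Tmem173fl/fl (blue) and Tmem173iΔmye (red) tumor, with the dashed line at equal FPKM. The ratio to Uba7 does not overlap between the groups, and the ratios of Tmem173fl/fl replicate 3 are the lowest of each set.

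The level of the modifier relative to its enzymes was compared as the ratio of FPKM, which allows for gene length. Isg15 over Uba7 was 1.52, 0.667 and 0.161 in Tmem173fl/fl replicates 1, 2 and 3 and 3.64, 1.67 and 2.23 in Tmem173iΔmye replicates 1, 2 and 3. Every Tmem173iΔmye tumor had a higher ratio than every Tmem173fl/fl tumor, with a difference of mean log2 ratios of 2.13 (exact two-sided permutation p = 0.1, Benjamini-Hochberg adjusted over 4 ratios 0.267). Thus the FPKM of Isg15 exceeded that of Uba7 in all 3 Tmem173iΔmye tumors and in 1 of the 3 Tmem173fl/fl tumors. This order rests on the annotated lengths, 756 bases for Isg15 and 6692 for Uba7. The lengths of the transcripts present were not tested. In counts Uba7 was above Isg15 in every tumor, with 1896 against 779 in Tmem173iΔmye replicate 1. Isg15 over Ube2l6 was 2.01, 1.14 and 0.299 in Tmem173fl/fl and 2.78, 2.05 and 1.96 in Tmem173iΔmye replicates 1, 2 and 3, a difference of 1.34 (exact permutation p = 0.2, adjusted 0.267). Those groups overlapped by Tmem173fl/fl replicate 1, and so did the ratios over Herc6 (difference 1.89, exact permutation p = 0.2, adjusted 0.267) and over Usp18 (difference 1.41, exact permutation p = 0.4, adjusted 0.4). Isg15 had the highest FPKM of the 5 in Tmem173fl/fl replicate 1 and in all 3 Tmem173iΔmye tumors. It was rank 3 in Tmem173fl/fl replicate 2, behind Uba7 and Usp18, and rank 4 in Tmem173fl/fl replicate 3, behind Uba7, Usp18 and Ube2l6.

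Across the 6 tumors the members varied together to different degrees. On log2(CPM + 1), Pearson's r between 2 members ranged from 0.58 for Usp18 and Uba7 to 0.92 for Ube2l6 and Herc6 over 10 pairs. Isg15 was closest to Herc6 (r = 0.91) and Ube2l6 (r = 0.90), while Usp18 had r = 0.63 with Isg15. These values describe 6 tumors of 2 groups, and they include the difference between the groups and the high values of Tmem173iΔmye replicate 1. The genes whose pattern was most like the mean of the members, after each member was scaled to the same SD, were Ccdc124 (r = 0.999), Ppie (r = 0.997), Enho (r = 0.997), Olfml2b (r = 0.997), Mrps25 (r = 0.997), 1600002K03Rik (r = 0.995), Ifi35 (r = 0.995) and Gm42067 (r = 0.994). Ifi35 is itself interferon-induced, whereas Ppie is a splicing-associated isomerase and Mrps25 a mitochondrial ribosomal protein. In all, 846 other genes had r of at least 0.9, so a close match over 6 tumors is common. Herc6, the member closest to the mean, ranked 114 among all genes by this measure and Usp18, the farthest, ranked 1948. Each member is itself part of this mean, which raises its r and its rank beside those of other genes.

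**Figure D3:**
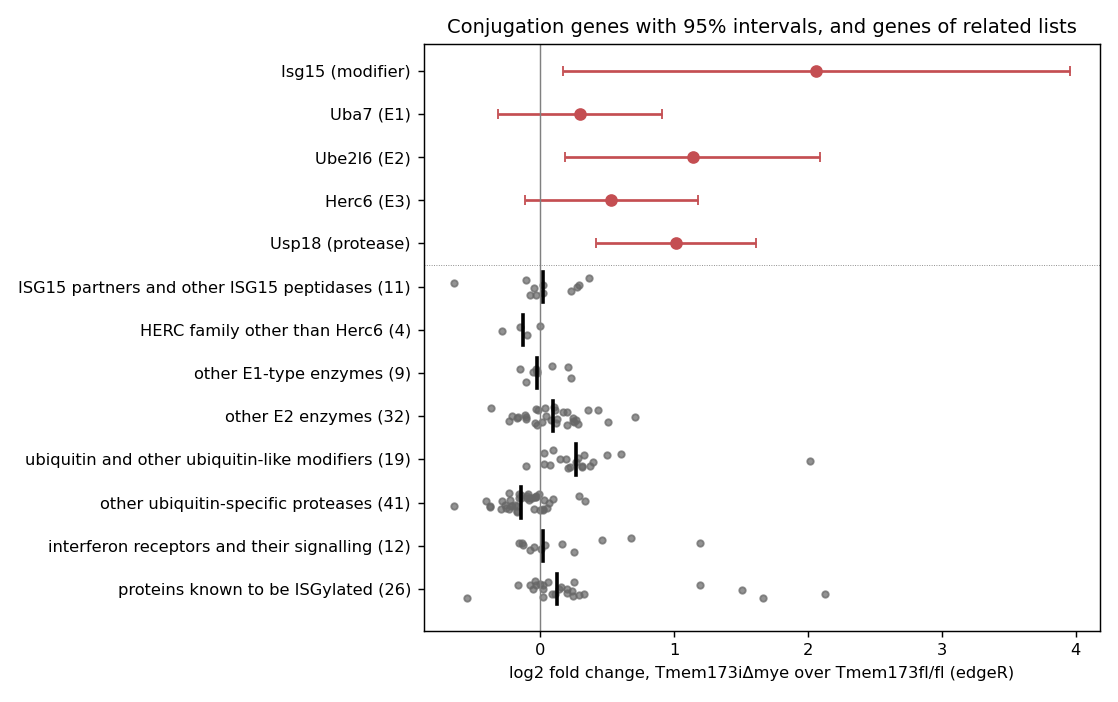
Log2 fold changes for Tmem173iΔmye over Tmem173fl/fl (horizontal axis, edgeR) of the 5 members with 95% intervals (red) and of the tested genes of related lists (grey points, number of genes in parentheses, vertical position within a list without meaning), with black bars for each list's median. The intervals of Isg15, Ube2l6 and Usp18 lie above 0, and the medians of the lists lie between -0.14 and 0.27.

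Genes of related machinery were counted in lists that share a few members. Of 145 distinct genes tested in these lists, 4 passed the limits, all higher in Tmem173iΔmye (2.76%, beside 2.12% of all genes), and their median log2 fold change was 0.02. None had an adjusted p under 0.05 in edgeR. Without Tmem173iΔmye replicate 1, 1 gene passed the limits, and without Tmem173fl/fl replicates 2 or 3, 2 passed them.

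Among the enzymes related to the members, none passed the limits. Of 9 other E1-type enzymes, 3 had a log2 fold change above 0 and the median was -0.02. Uba1, the main ubiquitin E1, had -0.05 (SE 0.18), Uba6, the E1 for ubiquitin and FAT10, -0.03 (SE 0.19), Sae1, a subunit of the SUMO E1, 0.23 (SE 0.20) and Nae1, a subunit of the NEDD8 E1, -0.15 (SE 0.13). Of 32 other E2 enzymes, 20 were above 0, with a median of 0.09. Ube2l3, the ubiquitin E2 closest in sequence to Ube2l6, had 0.12 (SE 0.16), beside 1.14 for Ube2l6. Ube2c, which serves the anaphase-promoting complex, had 0.71 (SE 0.31), Ube2g2 0.28 (SE 0.13) and Ube2t 0.51 (SE 0.26). The 4 other HERC genes (Herc1, Herc2, Herc3 and Herc4) were all below 0, from -0.28 for Herc1 to -0.0035 for Herc4, with Herc3 at -0.10 (SE 0.18) and Herc2 at -0.15 (SE 0.17). Their groups overlapped in each case.

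Of 41 other ubiquitin-specific proteases tested, 8 were above 0 and the median was -0.14, against 1.01 for Usp18. None passed the limits. Usp28 (-0.40, SE 0.17), a protease that stabilizes MYC, and Usp33 (-0.38, SE 0.16) had an unadjusted p under 0.05 (0.0435 and 0.0441, adjusted p = 0.742 from edgeR). Usp2 had -0.64 (SE 0.28). For Usp28, Usp33 and Usp2 all Tmem173iΔmye tumors were below all Tmem173fl/fl tumors in CPM. In this list 7 genes were apart in this direction. The other direction held 2, beside 6.03% of all genes tested.

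Other genes whose products have been reported to help attach, remove or bind ISG15 were counted apart. Of 11 tested, 6 were above 0, 0 passed the limits and the median was 0.02. Trim25, an antiviral E3 ligase also linked to ISG15, had 0.27 (SE 0.14), with 24.2 ± 2.05 and 29.3 ± 3.63 FPKM (SD, n = 3) in Tmem173fl/fl and Tmem173iΔmye tumors. Arih1, which has been described as another ISG15 ligase, had -0.07 (SE 0.16). Usp21, listed here for activity on ISG15, had 0.29 (SE 0.13), and Usp2, listed for the same reason, had the lowest value.

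Of 19 genes for ubiquitin and other ubiquitin-like modifiers, 18 were above 0 and 1 passed the limits (median 0.27). This was Ubd, which encodes FAT10, the other modifier with a pair of ubiquitin-like domains and also interferon-induced. Ubd had 778, 208 and 118 counts in Tmem173fl/fl replicates 1, 2 and 3 and 3228, 549 and 786 counts in Tmem173iΔmye replicates 1, 2 and 3. As for Isg15, Tmem173iΔmye replicate 1 was the highest and Tmem173fl/fl replicate 1 stood above Tmem173iΔmye replicate 2. The means were 25.3 ± 24.7 and 103 ± 100.3 FPKM (SD, n = 3), and the log2 fold change was 2.01 (SE 0.86, unadjusted p = 0.0490, adjusted p = 0.742 from edgeR). Ubb, which encodes ubiquitin, had 0.31 (SE 0.16).

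Of 12 genes for interferon receptors and their signalling, 7 were above 0, 0 passed the limits and the median was 0.02. For Ifnar1 the value was -0.16 (SE 0.15) and for Ifnar2, the subunit that USP18 binds, 0.16 (SE 0.21). Irf9, a transcription factor of interferon signalling, had 0.47 (SE 0.15, unadjusted p = 0.0175 from edgeR) with no overlap of the groups, and Stat2, its partner, had 0.67 (SE 0.29, unadjusted p = 0.0473 from edgeR).

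Of 26 genes whose proteins are known to be ISGylated, 19 were above 0 and the median was 0.12. Ifit3 (2.12, SE 0.47), Ifit1 (1.66, SE 0.56) and Mx1 (1.51, SE 0.61), antiviral proteins that are themselves interferon-induced, passed the limits, with unadjusted p of 0.00204, 0.0179 and 0.0400 and an adjusted p of 0.742 each from edgeR. The groups did not overlap for Ifit3 and Ifit1. RNA-seq does not measure the conjugates, so the amount of ISGylated protein was not measured here.

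None of 20 interferon genes reached the filter, and 14 were at 0 counts in all 6 tumors. Ifnb1 had 1 count each in Tmem173iΔmye replicates 1 and 2 and 0 in the others, and at this depth no difference was detectable. Ifng had 50 counts in Tmem173iΔmye replicate 1, 0 in replicate 2 and 3 in replicate 3, against 0, 0 and 2 in Tmem173fl/fl replicates 1, 2 and 3. The tumor with most Ifng reads was thus the one with the highest Isg15, Uba7, Ube2l6 and Herc6. Usp18 was highest in Tmem173iΔmye replicate 2, where Ifng had 0 counts. Tmem173fl/fl replicate 1, also at 0 for Ifng, was rank 3 of the tumors for Isg15. A part of Ifng in the level of any member was not tested.

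Markers of cell types in the tumors moved as follows beside these results, and their part in them was not tested. The summed FPKM of 10 T and NK cell markers was 13.4, 7.99 and 8.44 in Tmem173fl/fl replicates 1, 2 and 3 and 24.3, 17.5 and 14.6 in Tmem173iΔmye replicates 1, 2 and 3, without overlap (exact permutation p = 0.1). Taking the labels as given, all 8 tested T and NK cell markers were above 0 in log2 fold change and 1 of them (Gzmb, 1.55) passed the limits, while Ncr1 and Klrb1c had 9 counts or fewer in every tumor. Macrophage markers summed to 273 to 333 FPKM in Tmem173fl/fl and 281 to 441 FPKM in Tmem173iΔmye tumors, and neutrophil markers to 80.9 to 255 FPKM and 131 to 547 FPKM, with the top value of both in Tmem173iΔmye replicate 1. For macrophages 7 of 11 markers were above 0 and for neutrophils 6 of 7, and none passed the limits. Dendritic cell markers summed to 4.76 to 8.63 FPKM and 7.38 to 11.6 FPKM, with 2 of 8 markers tested. B and plasma cell markers summed to 100.4 to 198 and 164 to 246 FPKM (3 of 7 above 0, 1 past the limits), fibroblast markers to 208 to 264 and 217 to 318 FPKM (5 of 6 above 0), endothelial markers to 11.9 to 12.6 and 12.8 to 15.6 FPKM (3 of 5 above 0, no overlap of the sums, exact permutation p = 0.1), and epithelial markers to 5711 to 6343 and 6079 to 7093 FPKM (8 of 8 above 0). The epithelial markers were present at high levels in every tumor, and 0 markers of these lists were at 0 counts in all 6 tumors.

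**Figure D4:**
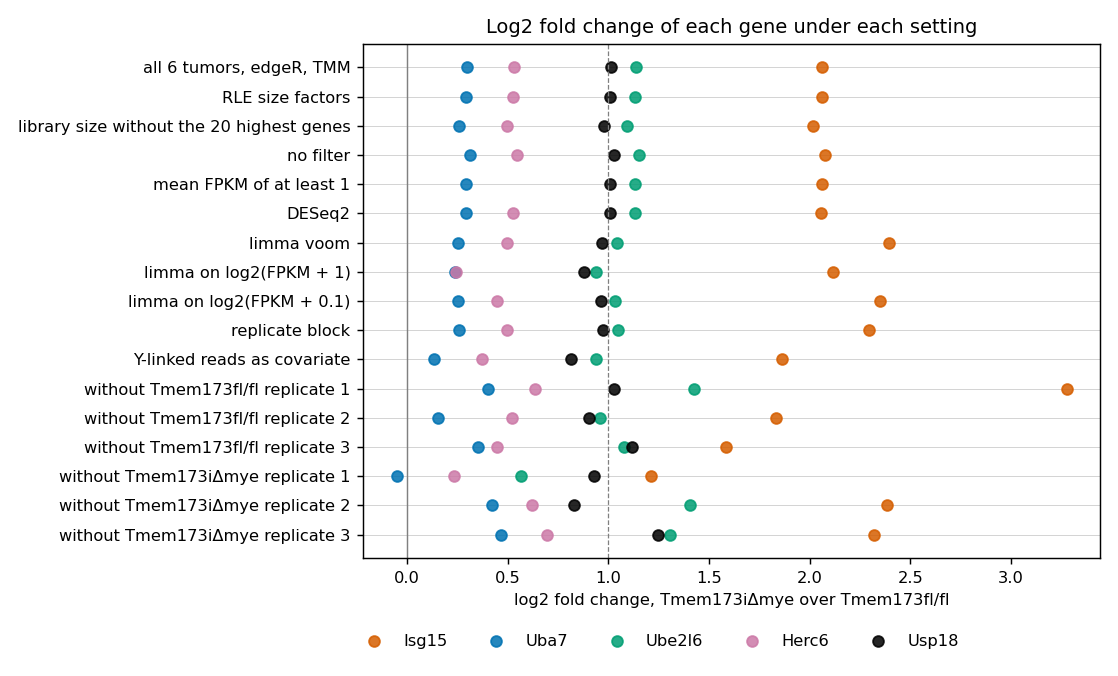
Log2 fold change for Tmem173iΔmye over Tmem173fl/fl (horizontal axis) of each of the 5 members (colors) under each setting (rows), with a solid line at 0 and a dashed line at 1. Isg15 has the highest value in each row, Uba7 crosses 0 in the row without Tmem173iΔmye replicate 1, and limma's values on log2 FPKM are on that log scale.

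Isg15 had the highest log2 fold change under each of 16 alternative settings, between 1.21 and 3.28, and Ube2l6 ranged from 0.56 to 1.42 and Usp18 from 0.81 to 1.25. Isg15 passed the limits under 13 of the 16 settings, Ube2l6 under 10, Usp18 under 7, and Uba7 and Herc6 under none. The adjusted p of a member was between 0.111 (Usp18 with DESeq2) and 1.0 over these settings, so that no setting brought a member past 0.05 after adjustment.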

How the data were processed

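For 6 tumors the authors deposited unnormalized counts of reads on genes and FPKM values, which equal counts per gene length scaled by median-of-ratios size factors (recomputed with a largest relative difference of 4.88e-08). Tools named in the submitters' processing notes were CASAVA 1.8, fastp, HISAT2 2.0.5, featureCounts 1.5.0-p3 and DESeq2 1.20.0, with the build GRCm38. The strand setting is not given in the sources used here. The table also holds the authors' own comparison (fold changes and p-values), which was not used.

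The quasi-likelihood test of edgeR 4.0.16 under R 4.3.3 was applied to counts of 16426 genes (mean FPKM 0.5 or more). Library sizes were scaled by TMM, the model held the group alone, and p-values were adjusted by Benjamini-Hochberg over all genes. SE is the absolute log2 fold change over the square root of F. Single values were compared by exact permutation tests. DESeq2 1.42.0, limma 3.58.1, other scalings and filters, the replicate number as a block, Y-linked reads as a covariate and leaving out each tumor were alternatives. Levels within tumors with and without Y-linked reads were added after the values were seen. The scripts were tested on simulated counts. Totals of at least 15329810 counts per tumor limit low genes, and counting error alone is covered by them. Nothing in the sources used here states that tumors of a group came from separate mice, cages or litters, so p-values measure the spread between these tumors.

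The members and lists were chosen with earlier results of these data known. Named genes are the 5 members, the 3 genes with the lowest p of each list, fixed genes of the pathway, the 8 genes most like the mean of the members, and the checks (Tmem173, Xist, Y-linked genes and overlapping genes). Gzmb, Ncr1 and Klrb1c were named after their values were seen. Promoter sequences are those of RefSeq. A few genes that this rule names are not reported here.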

Additional observations from a re-analysis of the deposited data

How the results depend on the processing

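The number of genes past the limits was 349 and became 872 without the filter, 131 with limma on log2(FPKM + 1), 211 with Y-linked reads as covariate, and 218 to 636 when each tumor was left out. Genes with an adjusted p under 0.05 numbered 0 in edgeR, 6 without the filter, 28 with DESeq2 and 0 to 1 when each tumor was left out. Members past the limits numbered 3, became 1 with limma on log2(FPKM + 1) or log2(FPKM + 0.1) and 1 with Y-linked reads as covariate, and ranged from 0 to 3 when each tumor was left out. List genes past the limits numbered 4, became 2 with limma at either pseudocount, and ranged from 1 to 6 when each tumor was left out. The median of the members ranged from 0.56 to 1.25 and Uba7 from -0.053 to 0.47, the lowest value of both coming without Tmem173iΔmye replicate 1. By Spearman's rho, 5 of the 8 genes most like the members were the same, and 96 genes were tied at or above the rho of the 8th. The log2 fold change of a member was above 0 in 78 of 79 alternative fits. Herc6 has no value with a mean FPKM of at least 1, because it falls under that filter.

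Tumors share replicate numbers in their titles, and the deviations of same-numbered tumors correlated at 0.31, 0.0085 and 0.15 for numbers 1, 2 and 3. As 1 of these is under 0.1, the numbers were not taken to pair the tumors, and Tmem173fl/fl replicate 2 correlated best with Tmem173iΔmye replicate 3 (0.22). The tumors of number 1 both had Y-linked reads (3547 and 2875 counts), and those of number 3 had 0 and 2 counts. Replicate number and sex thus coincided in part. Their shares in these correlations and in the block below cannot be told apart. With the replicate block, 377 genes passed the limits (270 of them shared with the 349) and 0 had an adjusted p under 0.05. Genes with an unadjusted p under 0.05 numbered 1504, beside 1008 without the block. With it, 2 members and 4 list genes passed the limits, and the members' median was 0.97 (Isg15 2.30, Ube2l6 1.05, Usp18 0.97, Herc6 0.49, Uba7 0.26). The block lowered the SE of Isg15 from 0.82 to 0.38 (unadjusted p = 0.00060, adjusted p = 0.247 from edgeR). That of Ube2l6 fell from 0.41 to 0.20 (unadjusted p = 0.0013, adjusted p = 0.342 from edgeR). For Usp18 the SE was 0.27 with the block and 0.26 without it.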
